A study of Mus musculus with 13 samples.

Results

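The genes described here are 39 genes of autophagy and of the lysosome, chosen by symbol from the 24079 genes of the RNA-seq count table of CGR8 cells, a mouse embryonic stem (ES) cell line. All 39 were found and all 39 passed the filter on low counts, which 13972 genes of the table passed. The control cells (DMSO) were kept for 48 h in 0.5% DMSO, and the PhenDC3 cells for 48 h in 10 μM PhenDC3, a ligand that stabilizes G-quadruplexes (G4, four-stranded DNA folds of G-rich sequence), with the same 0.5% DMSO. Both groups came from the same line, grown without feeder cells on gelatin and with LIF, and RNA-seq was available for 3 replicates of each group. Short nascent strands (SNS), stretches of new DNA that mark active replication origins, were sequenced from 3 control and 2 PhenDC3 replicates. The list was drawn up because *Calcoco2* was far higher with PhenDC3 in these same libraries. Its values are therefore given without a test, and the calls of the other members describe the contrast that was in view when they were chosen. The study describes the control SNS-seq replicates as biological. For the RNA-seq libraries the sources used here give replicate numbers only, so their p-values measure the spread between these samples, which may be technical.

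Autophagy encloses part of the cytoplasm in a double membrane and delivers it to the lysosome, the acidic compartment in which hydrolases break it down. The Ulk1 kinase complex and a lipid kinase complex start the membrane, proteins of the Atg8 group (LC3 and GABARAP) are attached to it by a ubiquitin-like conjugation system, and receptors that bind both Atg8 proteins and ubiquitin bring in the cargo. TFEB and TFE3 are transcription factors that bind E-boxes in the promoters of many lysosomal genes.

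Promoter windows of the members were read to show where such E-boxes lie. RefSeq (GRCm38.p6, the mm10 build) gave 38 windows for 31 of the 39 members, each from 250 bases before to 50 bases after a transcription start. The E-box CACGTG, which reads the same on both strands, was present in 11 of the 38 windows (28.9%), against 9.84% of the windows of all tested genes and 7.15% of all windows of the table. Its 8-base form TCACGTGA, which contains the E-box, was in 5 member windows (13.2%), against 1.75% for tested genes and 0.974% for the whole table. The 10-base CLEAR palindrome, the 8-base form with G before and C after it, was in none of the member windows and in 0.64% of those of tested genes. A match describes the letters of the window and no binding was measured. *Lamp1*, *Mcoln1* and *Ctsd* are shown because their windows hold a pair of E-boxes or more before the start. *Ctsa* is shown because its E-box lies next to the start, and *Gla* because it holds a pair of E-boxes while its RNA was not higher with PhenDC3. *Atg14* and *Atp6v0d1*, whose E-box crosses the start, are not shown. Only bases before the start are printed, 5′ to 3′ on the strand of the gene, with E-boxes in capitals. The regions are chr8:13159011-13159160 (+) for *Lamp1*, chr8:3500369-3500518 (+) for *Mcoln1*, chr7:142387828-142388077 (-) for *Ctsd*, chr2:164833623-164833772 (+) for *Ctsa* and chrX:134601006-134601255 (-) for *Gla*.
Lamp1: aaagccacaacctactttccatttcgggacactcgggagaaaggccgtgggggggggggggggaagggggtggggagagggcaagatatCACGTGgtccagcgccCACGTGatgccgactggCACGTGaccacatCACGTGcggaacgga
Mcoln1: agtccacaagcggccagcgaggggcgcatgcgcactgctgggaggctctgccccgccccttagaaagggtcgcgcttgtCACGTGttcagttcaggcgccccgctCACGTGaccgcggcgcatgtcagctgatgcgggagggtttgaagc
Ctsd: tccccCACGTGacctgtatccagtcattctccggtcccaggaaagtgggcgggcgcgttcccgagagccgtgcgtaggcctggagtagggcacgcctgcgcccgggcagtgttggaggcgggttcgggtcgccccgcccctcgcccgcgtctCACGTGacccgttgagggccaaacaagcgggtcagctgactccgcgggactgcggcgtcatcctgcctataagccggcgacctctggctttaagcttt
Ctsa: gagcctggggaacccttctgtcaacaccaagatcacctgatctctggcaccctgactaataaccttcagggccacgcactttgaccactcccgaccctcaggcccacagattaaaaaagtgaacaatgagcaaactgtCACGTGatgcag
Gla: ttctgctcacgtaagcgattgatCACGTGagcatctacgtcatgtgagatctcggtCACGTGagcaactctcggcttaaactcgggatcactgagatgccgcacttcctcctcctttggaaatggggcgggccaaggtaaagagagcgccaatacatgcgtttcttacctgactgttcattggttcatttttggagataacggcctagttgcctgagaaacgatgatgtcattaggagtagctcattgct

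*Lamp1* carried 4 E-boxes, at 61, 45, 28 and 15 bases before the start, counted to the 5′ base of each motif. *Mcoln1* carried 2, at 71 and 45 bases, and *Ctsd* 2, at 245 and 98 bases. The E-boxes of *Gla* lay at 227 and 194 bases. *Ctsa* had one E-box 12 bases before the start and another just after it, in the second of its 2 windows. The other members with an E-box were *Atg14*, *Atg5*, *Atg7*, *Atp6v0d1*, *Ctsl* and *Glb1*. G4 motifs, written as at least 4 runs of 3 or more G with loops of 1 to 7 bases on either strand, were in 6 of the 38 member windows (15.8%), against 28.0% of the windows of tested genes.

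**Figure D1:**
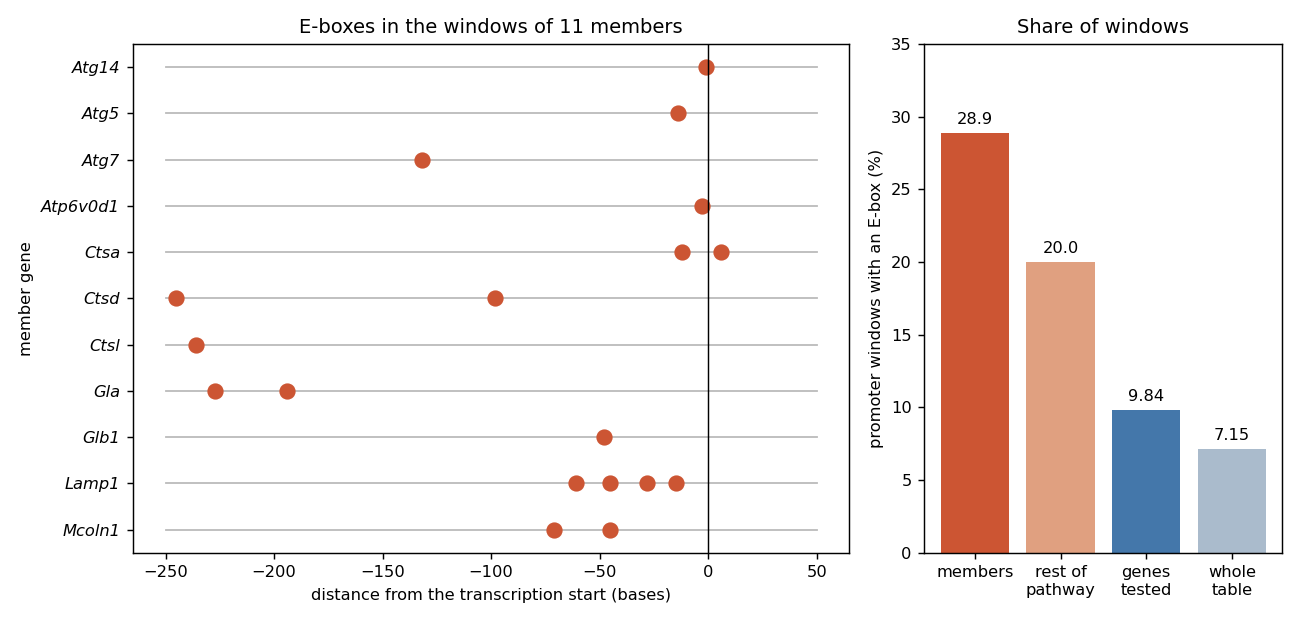
Left, distance in bases of each E-box from the transcription start (0) for the 11 members whose window holds one; the grey lines span the window. Right, percent of promoter windows with an E-box, which was 28.9% for the members, 20.0% for the rest of the pathway, 9.84% for all tested genes and 7.15% for the whole table.

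The comparison of PhenDC3 with control asks how these genes' RNA levels differed after 48 h of the ligand. By edgeR's quasi-likelihood test, with p-values adjusted by Benjamini-Hochberg over the 13972 genes and called at an adjusted p of at most 0.05, 14 of the 38 members other than *Calcoco2* were called higher with PhenDC3 and 3 lower. With *Calcoco2* counted, which is higher by the choice of the list, the numbers were 15 higher and 18 in either direction of 39. Among all tested genes 18% were called higher and 18.7% lower, or 36.8% in either direction, and the median log2 fold change was 0.00964. Since the members were proposed with this contrast in view, nothing is read from the difference between these shares. The median log2 fold change of the 39 members was 0.232, and 0.210 without *Calcoco2*. The lowest PhenDC3 value lay above the highest control value for 19 members (25% of all tested genes), and the reverse held for 7 (25.6% of all tested genes). In libraries of whole cultures, a lower level of an RNA per cell and fewer cells that make it cannot be told apart. Of the 17 calls other than *Calcoco2*, 9 held in each of the 6 fits that left out a library, namely *Optn*, *Gabarapl2*, *Ulk1*, *Atg14*, *Atg12*, *Lamp2*, *Ctsa*, *Hexa* and *Psap*. Without PhenDC3 replicate 1, 9 members, *Calcoco2* included, were called higher and 1 lower. Without control replicate 2, PhenDC3 replicate 2 or PhenDC3 replicate 3, the members called lower also numbered 1.

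**Figure D2:**
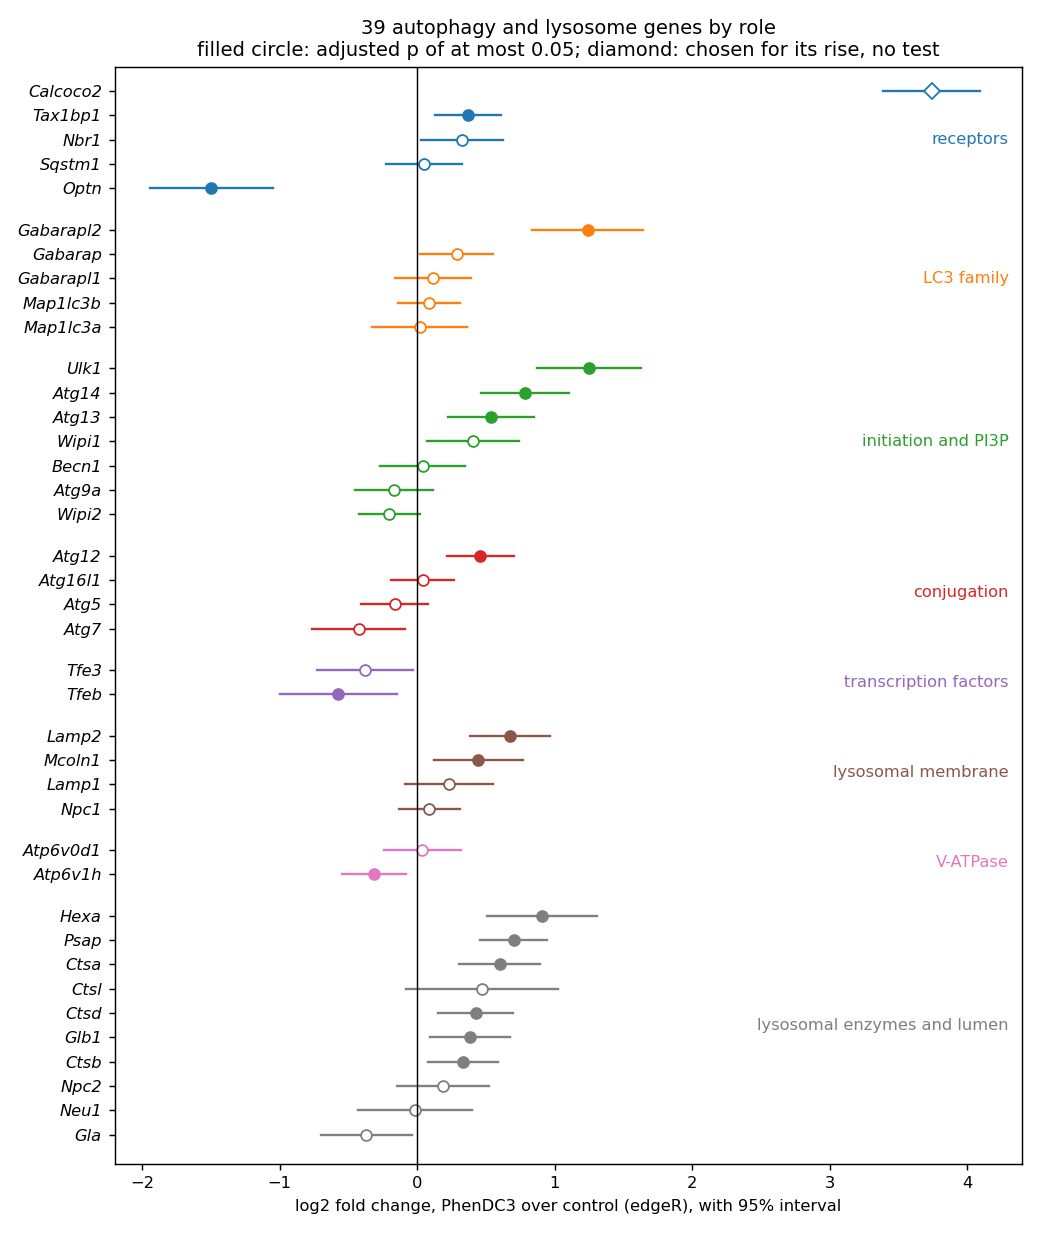
log2 fold change of PhenDC3 over control from edgeR for each of the 39 members, grouped by role, with its 95% interval (n = 3 libraries a group). Filled circles passed an adjusted p of 0.05; the open diamond is *Calcoco2*, chosen for its rise, which stands at 3.74 while no other member exceeds 1.25.

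*Calcoco2* (Entrez 76815, chr11:96098916-96124560 on the minus strand) is the mouse counterpart of the human gene for NDP52. The human protein is a receptor that links ubiquitin-coated bacteria and damaged mitochondria to LC3. What the mouse protein binds was not measured here. The RNA of *Calcoco2* was counted in each library. The raw counts of *Calcoco2* were 866, 593 and 733 in the control libraries and 13153, 9893 and 9182 in the PhenDC3 libraries. As CPM, counts scaled by the library's total and normalization factor, these were 31.3, 27.0 and 31.7 against 456, 414 and 333. Every PhenDC3 library thus lay far above every control library, and the control libraries differed little among themselves. The mean was 30.0 ± 2.59 CPM in control and 400.9 ± 62.4 CPM with PhenDC3 (SD, n = 3), a ratio of 13.4 and a log2 fold change of 3.74 (SE 0.16). The log2 fold change ranked 21 among the 13972 tested genes, and 2 among those with a mean of at least 10 CPM with PhenDC3.

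The other selective receptors did not share this pattern. *Sqstm1*, which encodes p62, the receptor that gathers ubiquitinated proteins, had 155, 173 and 168 CPM in control and 162, 197 and 156 CPM with PhenDC3. The groups overlapped, and its log2 fold change was 0.05, with a 95% interval from -0.23 to 0.33 (adjusted p = 0.775). *Optn*, encoding optineurin, a receptor of mitophagy, was the member that fell most. It had 7.02, 8.61 and 7.17 CPM in control and 2.36, 2.51 and 3.19 CPM with PhenDC3, and the groups stood apart. Its log2 fold change was -1.50 (SE 0.20, adjusted p = 0.000698). *Tax1bp1*, a paralogue of *Calcoco2*, went from 163 ± 13.1 to 210 ± 6.33 CPM, with a log2 fold change of 0.37 (adjusted p = 0.0249), but the call was lost in 5 of the 6 fits without a library, with an adjusted p of up to 0.0837. *Nbr1*, a receptor related to p62, had a log2 fold change of 0.33 (adjusted p = 0.0802).

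Per length of exonic sequence, *Calcoco2* moved from the fourth to the first place among the 5 receptors. It held 8.06, 6.85 and 7.31% of their summed RPKM (CPM per kilobase of exon) in the control libraries and 52.1, 47.5 and 44.8% in the PhenDC3 libraries. *Sqstm1* held 46.1 ± 3.05% in control, the largest share, and 23.3 ± 2.31% with PhenDC3 (SD, n = 3). *Optn* was the lowest of the 5 in both groups, at 1.34 ± 0.194% and 0.235 ± 0.0626%. These shares add up to the whole, so the share of each receptor falls as another rises.

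*Calcoco2* overlaps a neighbour. Its RefSeq exons share 104 bases, 4.54% of their length, with those of *Ttll6*, a tubulin polyglutamylase gene on the opposite strand, at the far end of a predicted transcript of *Calcoco2* that starts upstream of its curated start. Whether the counting used the strand is not given in the sources used here. *Ttll6* had 92, 104 and 39 counts in control and 836, 991 and 533 with PhenDC3, far fewer than *Calcoco2*, and its log2 fold change was 3.20 (SE 0.38, adjusted p = 0.000387). On the other side of *Calcoco2*, *Atp5g1* had a log2 fold change of -0.43 (adjusted p = 0.0283), *Ube2z* of 0.03 (adjusted p = 0.837) and *Snf8* of -0.09 (adjusted p = 0.663). Beyond *Ttll6*, *Hoxb13*, a homeobox gene, had 15, 9 and 11 counts in control and 64, 64 and 38 with PhenDC3 (log2 fold change 2.11, adjusted p = 0.00198), and *Gm11538* had 3, 6 and 1 against 18, 30 and 21 counts (2.61, adjusted p = 0.00757). The genes named on the side of the predicted start were thus higher with PhenDC3, and those on the other side were not.

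**Figure D3:**
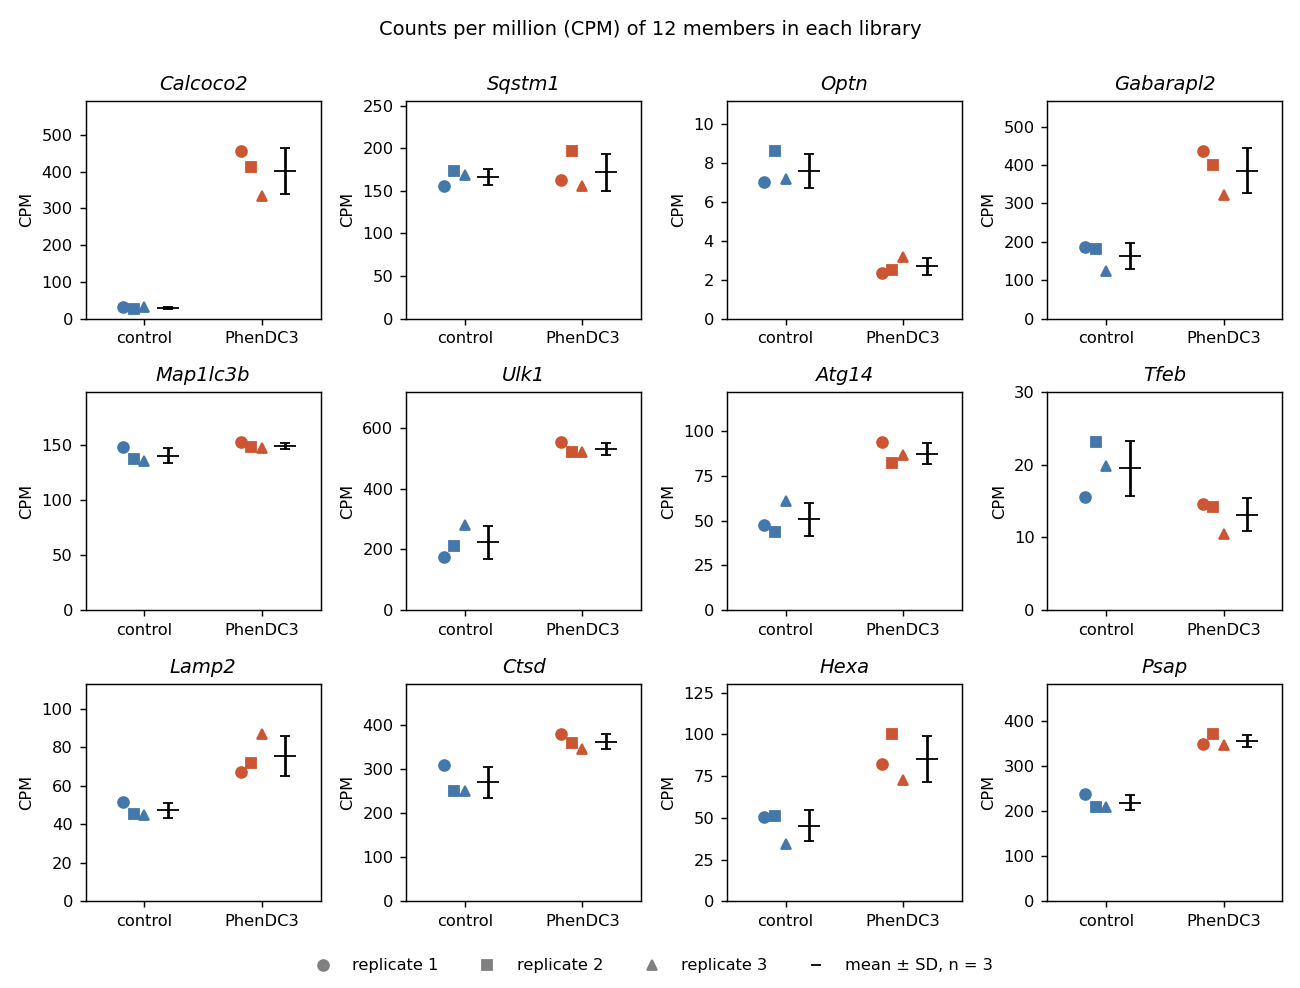
CPM of 12 members in each RNA-seq library (symbols mark replicate numbers 1 to 3; bars are mean ± SD, n = 3), each axis starting at 0. The PhenDC3 libraries lie above all controls for Calcoco2, Gabarapl2, Ulk1, Atg14, Lamp2, Ctsd, Hexa and Psap and below them for Optn and Tfeb, and the groups overlap for Sqstm1 and Map1lc3b.

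Among the 5 members of the LC3 family, *Gabarapl2* was the only one that rose by this test. *Gabarapl2* encodes GATE-16, an Atg8 protein that acts late in autophagosome formation and in Golgi transport. It had 186, 180 and 124 CPM in control and 436, 399 and 321 CPM with PhenDC3, so the lowest PhenDC3 library lay well above the highest control. The log2 fold change was 1.24 (SE 0.18, adjusted p = 0.00107). *Map1lc3b*, encoding LC3B, the usual marker of autophagosomes, had 148, 137 and 135 CPM in control and 152, 148 and 147 CPM with PhenDC3. These values overlapped, and the 95% interval of its log2 fold change ran from -0.14 to 0.31 around 0.09 (adjusted p = 0.515). *Gabarapl1* had 55.3, 48.7 and 58.0 CPM in control and 52.0, 59.6 and 63.8 CPM with PhenDC3, again with overlap, and a log2 fold change of 0.11 (adjusted p = 0.492). *Gabarap* had 0.29 (adjusted p = 0.0832) and *Map1lc3a* 0.02 (adjusted p = 0.936) on the same scale. Per length, *Gabarapl2* already made up 50.9 ± 4.35% of the summed RPKM of the 5 genes in control, and 68.6 ± 3.42% with PhenDC3. It was the highest of all 39 members per length in both groups, at 167 ± 34.8 and 393 ± 59.8 RPKM.

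Of the 7 genes of initiation, 3 rose and none fell (18% and 18.7% of all tested genes), and nothing is read from this count. *Ulk1*, the kinase that starts autophagy, had 176, 213 and 282 CPM in control and 553, 521 and 520 CPM with PhenDC3. The PhenDC3 libraries lay close together while the control libraries were spread widely, and the groups were far apart. Its log2 fold change was 1.25 (SE 0.17, adjusted p = 0.000742). *Atg13*, a subunit of the same kinase complex, had 71.7, 74.6 and 97.7 CPM in control and 124, 110 and 120 CPM with PhenDC3. Its log2 fold change was 0.54 (SE 0.14, adjusted p = 0.0150), and the adjusted p was up to 0.0653 when control replicate 1 or PhenDC3 replicate 1 was left out. *Atg14*, which brings the lipid kinase complex to the site of the new membrane, had 47.8, 43.6 and 61.1 CPM in control and 93.7, 82.2 and 86.6 CPM with PhenDC3. All PhenDC3 values exceeded all control values, with a log2 fold change of 0.78 (SE 0.14, adjusted p = 0.00300). *Becn1*, the scaffold of that lipid kinase complex and partner of Atg14, had a log2 fold change of 0.04 (adjusted p = 0.841). It shares 18.4% of its exonic length with *Cntd1* on the opposite strand. *Wipi1* and *Wipi2*, which bind the lipid made by the complex, had 0.41 (adjusted p = 0.0586) and -0.20 (adjusted p = 0.133). *Atg9a*, a lipid scramblase of the growing membrane, had -0.17 (adjusted p = 0.323).

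Of the conjugation genes, *Atg12*, a ubiquitin-like protein that is joined to Atg5, rose from 44.8 ± 3.85 to 61.6 ± 2.34 CPM (SD, n = 3; log2 fold change 0.46, SE 0.11, adjusted p = 0.0107). Its partners did not pass the test. *Atg5* had a log2 fold change of -0.16 (adjusted p = 0.253), *Atg16l1*, which completes the complex, 0.04 (adjusted p = 0.785), and *Atg7*, the enzyme that activates both conjugation pathways, -0.42 (adjusted p = 0.0520). *Atg7* lay just outside the threshold, and its 3 PhenDC3 values (12.8, 10.3 and 12.2 CPM) were all below the lowest control value of 14.7 CPM.

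Both transcription factors of the list were lower on average with PhenDC3, and *Tfeb* was called. *Tfeb* had 15.6, 23.1 and 19.9 CPM in control and 14.6, 14.2 and 10.5 CPM with PhenDC3. The groups did not overlap, but control replicate 1 lay close to the PhenDC3 values. Its log2 fold change was -0.57 (SE 0.19, adjusted p = 0.0395), and the call was lost in 5 of the 6 fits without a library, in all but the one without control replicate 1, with an adjusted p of up to 0.130. *Tfe3* had 125, 130 and 180 CPM in control and 110, 102 and 122 CPM with PhenDC3, also without overlap, and a log2 fold change of -0.38 (SE 0.16, adjusted p = 0.0837). Per length *Tfe3* was far more abundant than *Tfeb* in control, at 37.6 ± 7.79 against 3.38 ± 0.653 RPKM. Related factors in the rest of the pathway did not share the direction of *Tfeb* throughout. *Mitf* was called higher, from 14.2 ± 0.62 to 24.8 ± 3.19 CPM (log2 fold change 0.80, adjusted p = 0.00228). *Tfec* was not called (-0.59, adjusted p = 0.457).

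Of the 10 genes of lysosomal enzymes and lumenal proteins, 6 rose and none fell (18% and 18.7% of all tested genes), and nothing is read from this count. *Hexa*, the alpha subunit of the hexosaminidase that degrades the ganglioside GM2, rose most. It had 50.7, 50.9 and 34.6 CPM in control and 82.5, 100.3 and 72.8 CPM with PhenDC3, with a log2 fold change of 0.91 (SE 0.18, adjusted p = 0.00456). *Psap*, the precursor of the saposins that help hydrolases reach their lipids, had 238, 210 and 208 CPM in control and 349, 371 and 346 CPM with PhenDC3. Its libraries were tight within each group, and its log2 fold change was 0.70 (SE 0.11, adjusted p = 0.00140). *Ctsa*, encoding cathepsin A, which protects beta-galactosidase and neuraminidase, had 81.3, 78.2 and 64.5 CPM in control and 107, 127 and 105 CPM with PhenDC3. The log2 fold change was 0.60 (SE 0.13, adjusted p = 0.00727), and 22.3% of its exonic length is shared with genes on the opposite strand.

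*Ctsd*, the aspartic protease of the lysosome, had 309, 249 and 250 CPM in control and 379, 359 and 346 CPM with PhenDC3. The groups stood apart, and the log2 fold change was 0.42 (SE 0.12, adjusted p = 0.0238). The call was lost without control replicate 2, PhenDC3 replicate 1 or PhenDC3 replicate 2, with an adjusted p of up to 0.103. *Glb1*, the lysosomal beta-galactosidase, and *Ctsb*, a cysteine protease, passed the test by little, with log2 fold changes of 0.38 (adjusted p = 0.0427) and 0.33 (adjusted p = 0.0457). Each lost its call in 5 of the 6 fits without a library, and *Ctsb* also with TMM normalization (adjusted p = 0.0507). *Ctsb* shares 16.3% of its exonic length with *Fdft1* on the opposite strand. *Glb1* shares 10.1% with *Gm30254* on the opposite strand and *Tmppe* on the same strand. *Ctsl*, another cysteine protease, was widely spread among the controls. It had 355, 261 and 171 CPM in control and 390, 409 and 293 CPM with PhenDC3, so control replicate 1 lay above PhenDC3 replicate 3, and a log2 fold change of 0.47 had an adjusted p of 0.158. *Npc2*, which takes up cholesterol in the lumen, had 0.19 (adjusted p = 0.347), *Neu1*, the neuraminidase, -0.01 (adjusted p = 0.960) and *Gla*, the alpha-galactosidase, -0.37 (adjusted p = 0.0756).

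The control libraries differed in an ordered way in this group. Of the 10 enzyme and lumenal genes, 9 were lowest in control replicate 3 and 7 were highest in control replicate 1. Among all tested genes, 38.9% were lowest in control replicate 3 and 26.7% highest in control replicate 1. The summed level of the 10 genes was 1384, 1175 and 993 CPM in control and 1673, 1746 and 1519 CPM with PhenDC3, so the spread among the controls was larger than the gap between the highest control and the lowest PhenDC3 library. Of the 7 initiation genes, 5 were highest in control replicate 3, against 37.7% of all tested genes. Summed, these 7 had 518, 577 and 670 CPM in control and 986, 944 and 939 CPM with PhenDC3.

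In the lysosomal membrane, *Lamp2* rose and *Lamp1* did not pass the test. *Lamp2*, a membrane glycoprotein needed for fusion with autophagosomes and for chaperone-mediated autophagy, had 51.6, 45.2 and 44.9 CPM in control and 67.4, 71.9 and 87.0 CPM with PhenDC3. The groups were apart, and its log2 fold change was 0.67 (SE 0.13, adjusted p = 0.00395). *Lamp1*, its more abundant relative, had 389, 369 and 289 CPM in control and 401, 456 and 372 CPM with PhenDC3, with 1 PhenDC3 library below the highest control. Its log2 fold change was 0.23, with a 95% interval from -0.09 to 0.55 (adjusted p = 0.228). Per length, *Lamp1* exceeded *Lamp2* in both groups, at 156 ± 23.7 against 6.98 ± 0.561 RPKM in control and 183 ± 19.1 against 11.1 ± 1.52 RPKM with PhenDC3.

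*Mcoln1*, the calcium channel of the lysosomal membrane, rose from 18.9 ± 3.03 to 25.8 ± 1.51 CPM (log2 fold change 0.44, adjusted p = 0.0371), and this call was lost in 5 of the 6 fits without a library, with an adjusted p of up to 0.104. *Npc1*, the cholesterol exporter, had a log2 fold change of 0.09 (adjusted p = 0.507). Of the V-ATPase, the proton pump that acidifies the lysosome, *Atp6v1h* fell from 69.3 ± 1.73 to 55.8 ± 4.05 CPM (log2 fold change -0.31, adjusted p = 0.0416). That call was lost in each fit without a library, with an adjusted p between 0.0529 and 0.161. *Atp6v0d1* had a log2 fold change of 0.04 (adjusted p = 0.836).

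**Figure D4:**
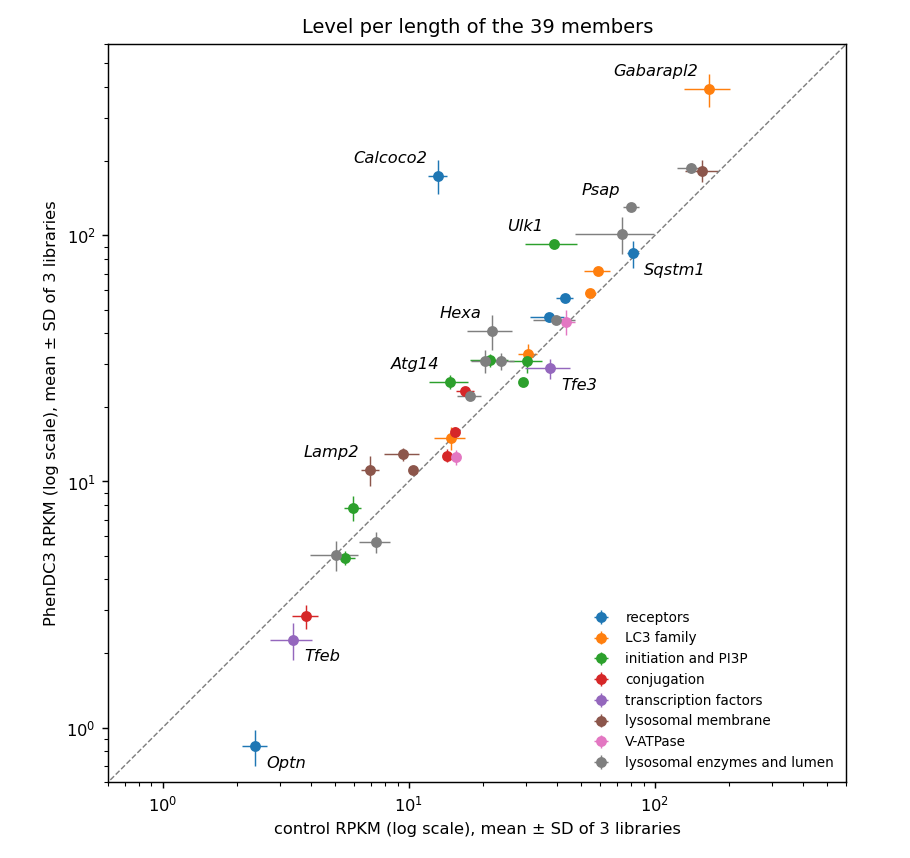
RPKM of each member in control (x axis) and with PhenDC3 (y axis), both log scales, mean ± SD of 3 libraries, coloured by role; the dashed line marks equal levels. Calcoco2 lies farthest above the line (13.1 against 175 RPKM) and Optn farthest below it (2.37 against 0.839 RPKM).

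Ordered by level per length, the members were mostly abundant genes, with a median of 21.5 RPKM in control against 5.10 RPKM for all tested genes, and 30.8 against 5.26 RPKM with PhenDC3. In control the order began with *Gabarapl2*, *Lamp1* and *Ctsd*, which differed by less than the SD of the highest, and ended with *Tfeb* and *Optn*. *Calcoco2* stood at place 29 of 39 in control, next to *Atg5* and *Npc1*, and at place 4 with PhenDC3, next to *Lamp1* and *Psap*. Its 175 ± 27.2 RPKM with PhenDC3 did not differ from the 183 ± 19.1 RPKM of *Lamp1* beyond their spread, while *Psap* lay lower at 130 ± 4.99 RPKM. *Ulk1* moved from place 12 to place 7. *Tfe3* moved from place 13 to place 21.

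Replication origins at the members' starts were a measure that the choice of members did not use. An origin peak is a region enriched in short nascent strands over a library treated with RNase, as called by the authors in each replicate, and the lists hold no read counts. A peak lay within 2 kb of a curated RefSeq start in 24, 22 and 10 of the 39 members in the control lists (61.5, 56.4 and 25.6%) and in 29 and 15 members in the PhenDC3 lists (74.4 and 38.5%). For tested genes with a start the shares were 67.2, 64.6 and 39.2% in control and 64.3 and 46.0% with PhenDC3. The number of members with a peak thus differed more within each group than between the groups, and the lists themselves held between 79377 and 144103 peaks. With 3 lists against 2, the smallest two-sided p of an exact permutation test is 0.2, so no test was made.

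At least 2 of the 3 control lists had a peak at 17 members (43.6%, against 62.2% of tested genes), and both PhenDC3 lists at 14 (35.9%, against 41.5%). Both conditions were met by 12 members (30.8%, against 36.6%). No member met the control condition while lacking a peak in every PhenDC3 list, a pattern seen at 8.27% of tested genes, and none had peaks in both PhenDC3 lists and in no control, which was 2.03% of tested genes. These counts depended on the lists and on the distance. Without control replicate 1 or control replicate 2, 9 members had a peak in the 2 remaining controls, and 7 met both conditions. Without control replicate 1, 2 members had peaks in both PhenDC3 lists and in no remaining control. The shares of tested genes without a control list were not counted, so nothing is read from these counts. Within 500 bp of a start, both PhenDC3 lists had a peak at 6 members (15.4%, against 24.8% of tested genes). At that distance 4 members met both conditions (10.3%, against 21.0%).

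In all 5 lists, 7 members had a peak at a start, namely *Ctsa*, *Ctsd*, *Map1lc3a*, *Sqstm1*, *Tfe3*, *Tfeb* and *Wipi1*. *Tfeb*, with 3 curated starts, had the most, with 9, 5 and 4 peaks in the control lists and 10 and 5 in the PhenDC3 lists, and its strongest peak was enriched 10.7, 6.82 and 10.8 times in control and 12.3 and 7.68 times with PhenDC3. *Ulk1* had peaks in control 1 and 2 and in both PhenDC3 lists, and *Gabarapl2* in control 1 and 2 and PhenDC3 1. No list had a peak at the start of *Calcoco2*, *Nbr1*, *Gabarapl1*, *Atg14* or *Atg7*. Members with and without an RNA call were found in each class. Of the 12 members that met both conditions, 5 were called higher and 2 lower. Of the 5 without a peak, 2 were called higher, *Atg14* and *Calcoco2*, the latter by the choice of the list. Among all tested genes 18% were called higher and 18.7% lower, and nothing is read from these counts.

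**Figure D5:**
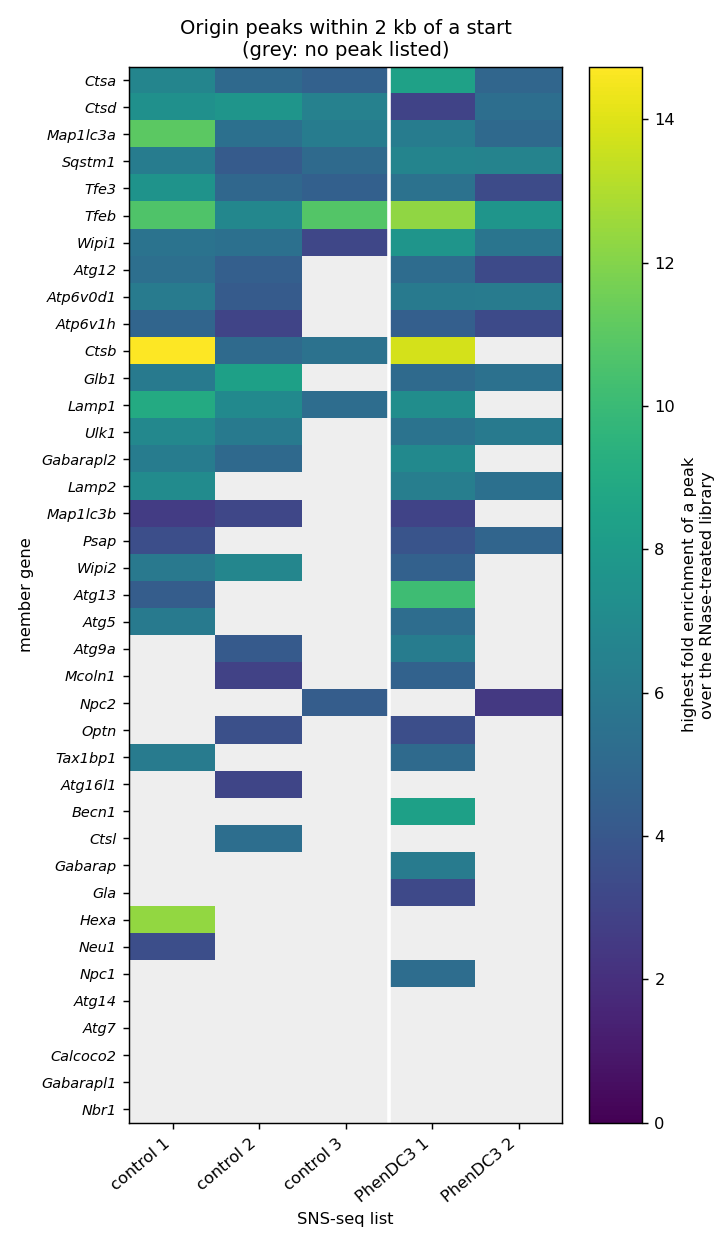
Highest fold enrichment of an origin peak within 2 kb of a curated start for each member (rows, ordered by the number of lists with a peak) in each SNS-seq list (columns, 3 control and 2 PhenDC3); grey means that the list holds no peak there. The control lists mark 24, 22 and 10 members and the PhenDC3 lists 29 and 15, and Calcoco2 is among the 5 members with none.

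*Calcoco2* did have an origin away from its curated start. All 5 lists held a peak 10934 bases upstream of that start, measured to the centre of the control replicate 2 peak, and 1664 bases inside the predicted longer transcript, in an intron with no overlap with an exon of the gene. Its fold enrichment was 4.31, 6.68 and 4.65 in the control lists and 6.53 and 3.59 in the PhenDC3 lists, so the values of the groups overlapped. The part common to all 5 peaks was chr11:96122913-96122976 (64 bases). The control replicate 2 peak, chr11:96122762-96123031 in mm10, is printed because all 5 lists hold a peak that overlaps it at the gene that differed most. The plus strand, opposite to that of the gene, was chosen because it holds more runs of G. Each of 3 lists held a further peak in the gene that the others did not share, enriched 5.89 times in control replicate 1, 6.39 times in control replicate 2 and 3.86 times in PhenDC3 replicate 1. Capitals mark runs of 3 or more G.
Calcoco2 origin: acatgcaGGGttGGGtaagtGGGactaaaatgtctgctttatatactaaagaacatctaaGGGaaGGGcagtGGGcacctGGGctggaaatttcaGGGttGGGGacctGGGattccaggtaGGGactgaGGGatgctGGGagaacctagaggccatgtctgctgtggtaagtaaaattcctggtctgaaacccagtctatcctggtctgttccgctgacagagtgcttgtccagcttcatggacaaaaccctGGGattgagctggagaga

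It holds 14 such runs on the plus strand and 2 on the minus strand, has 50.7% G and C, and contains a G4 motif as defined above. The marked runs and the motif all lie outside the 64 bases common to the 5 peaks. The peaks of control replicates 1 and 3 start past the motif, at bases 96122913 and 96122891, and do not contain it. The peak was listed in both conditions, and the lists give no measure that compares its strength between libraries beyond the fold enrichment.

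E-boxes were set beside the RNA calls as a description. Of the 11 members with an E-box in a window, 5 were called higher and none lower (*Atg14*, *Ctsa*, *Ctsd*, *Glb1* and *Mcoln1*), with a median log2 fold change of 0.385. Of the 1292 tested genes with an E-box in a window, 15.6% were called higher and 20.7% lower, with a median of -0.01. Of the 20 members whose windows held none, 7 were called higher and 2 lower, with a median of 0.239, against 18% and 18.5% of the 9752 tested genes with a window and no E-box. Since the members were chosen with this contrast in view, nothing is read from the split. *Gabarapl2*, *Ulk1*, *Hexa* and *Psap* were among these 20, and *Lamp1*, with 4 E-boxes, was not called. Windows of *Calcoco2*, *Atg12*, *Atg16l1*, *Atp6v1h*, *Becn1*, *Ctsb*, *Map1lc3a* and *Npc1* were not analysed here.

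The rest of the pathway was taken from a list of 164 other genes of autophagy and the lysosome, chosen by their known role and not by their values, though with earlier results of these data known. Of these, 161 were in the table and 151 were tested, of which 30 (19.9%) were called higher and 13 (8.61%) lower, against 18% and 18.7% of all tested genes. The share called higher was thus near the background. Their median log2 fold change was 0.0954. Without PhenDC3 replicate 1, 18 were called higher and 7 lower, without PhenDC3 replicate 2, 19 and 8, and without control replicate 1, 7 were called lower.

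By role, 5 of 23 other genes of initiation, membrane and conjugation were called higher and none lower. For this and the other counts by role, 18% of all tested genes were called higher and 18.7% lower. Nothing is read from these counts. The highest was *Atg16l2*, a relative of *Atg16l1*, with 3.36, 3.19 and 3.07 CPM in control and 26.9, 35.9 and 19.0 CPM with PhenDC3 (log2 fold change 3.08, SE 0.24, adjusted p = 7.64e-05). *Wdr45*, a relative of the Wipi genes, went from 32.9 ± 3.80 to 67.6 ± 8.78 CPM (log2 fold change 1.04, adjusted p = 0.000708). Of 15 other receptors, 3 were called higher and 3 lower. *Retreg1* (in the table under its older symbol *Fam134b*), a receptor for the endoplasmic reticulum, was higher (log2 fold change 1.29, adjusted p = 0.000668), and *Bnip3*, a mitophagy receptor induced by low oxygen, was lower (-1.06, adjusted p = 0.000839). Of the 14 genes of fusion and tethering, 3 were called higher and none lower, among them *Vamp8*, the SNARE of the lysosome (0.91, adjusted p = 0.0102).

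Of 26 regulators, 7 were called higher and 1 lower. The shares of all tested genes, 18% and 18.7%, stand beside the counts of this paragraph too, and nothing is read from them. *Prkaa2*, a catalytic subunit of AMPK, had a log2 fold change of 1.06 (adjusted p = 0.000880). *Foxo3*, a transcription factor of autophagy genes, had 1.14 (adjusted p = 0.0399), but its groups overlapped and the adjusted p reached 0.144 when a library was left out, the call being lost without control replicate 1 or 2 or PhenDC3 replicate 1 or 3. Of 36 other lysosomal enzymes tested, 3 were called higher and 7 lower, with a median log2 fold change of 0.00532. *Manba*, the beta-mannosidase, fell most, with 110, 113 and 115 CPM in control and 25.1, 22.4 and 31.1 CPM with PhenDC3 (log2 fold change -2.10, SE 0.14, adjusted p = 5.34e-05). *Gusb*, the beta-glucuronidase, had -1.19 (adjusted p = 0.000461). *Ctsc*, a protease that activates others, had -0.87 (adjusted p = 0.0358), with overlapping groups and a call that was lost in 5 of the 6 fits without a library (adjusted p up to 0.139). Of 22 other genes of the lysosomal membrane and transport, 5 were called higher and 2 lower, and of 15 other V-ATPase genes 4 were called higher and none lower.

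The libraries held 22232014 to 29486502 counts. Markers of ES cells were found in all of them, in control from 23.6 ± 3.86 CPM for *Dppa3* to 1486 ± 118 CPM for *Pou5f1*. Of 10 such markers, 4 were called higher with PhenDC3 and 3 lower (18% and 18.7% of all tested genes). *Nanog*, *Klf4*, *Tfcp2l1* and *Dppa3* were higher, and *Pou5f1*, *Utf1* and *Lin28a* lower. The summed level of the 10 was 4933 to 5283 CPM in control and 5606 to 6092 CPM with PhenDC3. Of 8 markers of primitive endoderm, a cell type that ES cells can give rise to, 6 were called higher and none lower, beside the same shares of all tested genes. The summed level of these 8 was 282 to 352 CPM in control and 488 to 618 CPM with PhenDC3. Most of this sum was *Lama1*, at 222 ± 24.0 CPM in control and 442 ± 62.5 CPM with PhenDC3. No marker of that list was at 0. Their part in the values of the members was not tested. Of 8 fibroblast markers, *Dcn* and *Lum* were at 0 in every library, and the summed level was 8.97 to 13.3 CPM in control and 8.57 to 18.7 CPM with PhenDC3. Of 6 macrophage markers, *Adgre1* was at 0 in every library, and nearly all of the summed 14.4 to 18.1 CPM in control and 17.5 to 19.7 CPM with PhenDC3 was *Cd68*, which is itself a lysosomal membrane protein.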

How the data were processed

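RNA-seq and SNS-seq of CGR8 cells were used. The authors mapped RNA-seq reads from a stranded mRNA kit with TopHat2 2.1.1, which runs Bowtie2, and obtained gene counts with HTSeq 0.6.1p1, and the deposited table holds raw counts. The annotation and the strand setting of the counting are not given in the sources used here. For SNS-seq, the authors called narrow peaks with MACS2 2.1.0 on mm10 in each replicate against an RNase-treated library and kept those shared with SICER's broad regions. The deposited lists give each peak's fold enrichment (a ratio to that library) and the −log10 of its p-value, and the read depth is unknown. The authors' tables of normalized counts and of their own differential test (mean, log2 fold change, p-values) were not used.

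Counts were tested with edgeR 4.0.16 in R 4.3.3 (quasi-likelihood, robust, RLE normalization, filterByExpr), with Benjamini-Hochberg adjustment over 13972 genes and no replicate block. SE is the log2 fold change divided by the root of F. RPKM used the union of RefSeq exons. The code was tested on simulated data. Alternatives were TMM, DESeq2 1.42.0, 2 other filters, a replicate block, each library left out, and for peaks 2 other windows and the stronger part of each list. The members and lists were chosen with earlier results of these data known. Values in each library are given for *Calcoco2*, for members called with an absolute log2 fold change of at least 0.5, for the 10 members of largest change and for *Sqstm1*, *Map1lc3b*, *Gabarapl1*, *Tfe3*, *Lamp1*, *Ctsd* and *Ctsl*. From the rest of the pathway, the 10 of largest change among those called with at least 1 CPM are named. Values of *Atg7*, *Mitf* and *Tfec* and the neighbours of *Calcoco2* were added after they were seen.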

Additional observations from a re-analysis of the deposited data

How the results depend on the processing

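With 3 libraries a group, 8 of the 17 member calls other than *Calcoco2* were lost in at least 1 fit without a library. *Calcoco2* had a log2 fold change between 3.64 and 3.86 in the fits without a library. Over the 5 other RNA settings, 231 of 245 values of the named genes kept their direction and their side of the threshold, 10 gained the call, 4 lost it, and none changed sign. DESeq2 called 19 members, the 18 called here among them. Replicate numbers were not taken as pairs, because the same-number correlations of deviations were 0.0983, 0.627 and 0.486, although every library correlated best with its own number. The library names also place each control beside the PhenDC3 library of the same replicate number. A replicate block raised the called members to 26, of which 6 were lower, and the rest of the pathway to 53 higher and 28 lower. It raised all genes higher to 3797 of 13972 tested. The number of all genes called lower with the block is not given here, so nothing is read from these counts. The members gained with the block were *Atg7*, *Ctsl*, *Gabarap*, *Gla*, *Lamp1*, *Nbr1*, *Tfe3* and *Wipi1*. Without a library, the members called higher numbered 9 to 13 and lower 1 to 2, the rest of the pathway 18 to 30 and 7 to 17, and all genes 1709 to 2689 higher and 1623 to 2727 lower. The sign of some values near 0 turned: *Sqstm1* ranged from -0.056 to 0.11, *Map1lc3a* from -0.070 to 0.14, *Becn1* from -0.047 to 0.16, *Atp6v0d1* from -0.043 to 0.12 and *Neu1* from -0.19 to 0.12. For origins, members with a peak in both PhenDC3 lists numbered 6 within 500 bp, 7 with the 2 kb upstream alone and 9 with the stronger part of each list. These were 15.4, 17.9 and 23.1% of members, against 24.8, 22.8 and 25.1% of tested genes. Those with peaks in both conditions numbered 4 and 5 within 500 bp and with the 2 kb upstream (10.3 and 12.8%, against 21.0 and 19.2% of tested genes). Peaks in at least 2 controls and none with PhenDC3 were at 1 and 3 members there (2.56 and 7.69%, against 12.3 and 12.8%). The reverse was at 1 member with the 2 kb upstream (2.56%, against 1.66%). Without a control list, 9 to 17 members had peaks in at least 2 controls, 7 to 12 in both conditions and 0 to 2 only with PhenDC3. The causes were not tested.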
